A study of Mus musculus with 4 samples.

Results

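The motile cilium genes described here were the 56 features, of 19465 in the count tables, whose symbols began with Cfap, Dnah, Dnai, Drc or Rsph followed by a digit. Membership was set by name alone, but the set was picked with earlier results of these data known. No symbol beginning with Dnai was among them. The remaining symbols gave 5 outer arm and 8 inner arm dynein heavy chains, 3 subunits of the nexin-dynein regulatory complex, 9 radial spoke genes, 8 genes of the central apparatus, 7 genes of proteins inside the doublet microtubules, 7 genes for tether, modifier or assembly proteins, and 9 further Cfap genes.

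The genes were measured with the Visium FFPE assay, in which probe pairs bound to RNA in fixed sections are captured on an array of spots and counted by unique molecular identifier (UMI). Coronal brain sections came from wild-type male pups of C57BL/6J mothers at postnatal day 21. The mothers received a control diet with 2 mg/kg folic acid (MF) or an excessive diet with 20 mg/kg (HF) from before mating until the end of lactation, and each diet had 2 sections. All pups were thus exposed to folic acid, and the diet was that of the mother. The sources used here do not say whether the 2 pups of a diet came from separate litters, so p-values measure only the spread between these sections.

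Motile cilia beat by means of an axoneme in which outer doublet microtubules surround a central pair. Dynein heavy chains of the outer and inner arms are the motors. The nexin-dynein regulatory complex links neighbouring doublets, and radial spokes connect them with the central apparatus. In the brain, such cilia stand in tufts on the ependymal cells that line the ventricles, where they move cerebrospinal fluid.

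The 4 sections kept 3197 to 3598 spots and between 34982061 and 90096877 UMIs, with MF replicate 1 the deepest. Each of the 56 genes had at least 1 UMI in the 4 sections together, and 55 had a UMI in every section. Totals ran from 5 UMIs for Cfap97d1 to 45368 for Cfap36, with a median of 702. In 47 genes every section held 20 UMIs or more.

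Clustering of the spots at the resolution used for the areas (2), made without the motile cilium genes, gave no cluster that ependymal markers named. The ventricle wall was therefore represented by the 1% of spots in each section with the highest summed level of 13 ependymal markers, none of them a motile cilium gene of the 56. These 134 ependymal-marker spots (36, 33, 32 and 33 in MF replicate 1, MF replicate 2, HF replicate 1 and HF replicate 2, the order used for all values in this text) are the upper end of a score and not a cell type. A spot is a small region of tissue that can hold several cells, so neither a cell's own level nor a cell count was measured, and more ciliated cells cannot be told apart from more RNA per cell. The spots lay in bands at 3 places in each section, and single spots lay apart from them. In the clustering, 7, 4, 8 and 8 of these spots belonged to choroid plexus and 7, 11, 4 and 5 to white matter. Another 8, 3, 6 and 5 belonged to medial habenula, and 10, 11, 10 and 14 to unnamed clusters. Hypothalamus held 4, 2, 3 and 0 of them, and meninges 0, 2, 1 and 1. A finer clustering (resolution 3) did name an ependymal cluster, of 54, 34, 29 and 49 spots. Of these, 15, 15, 12 and 15 were ependymal-marker spots.

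**Figure D1:**
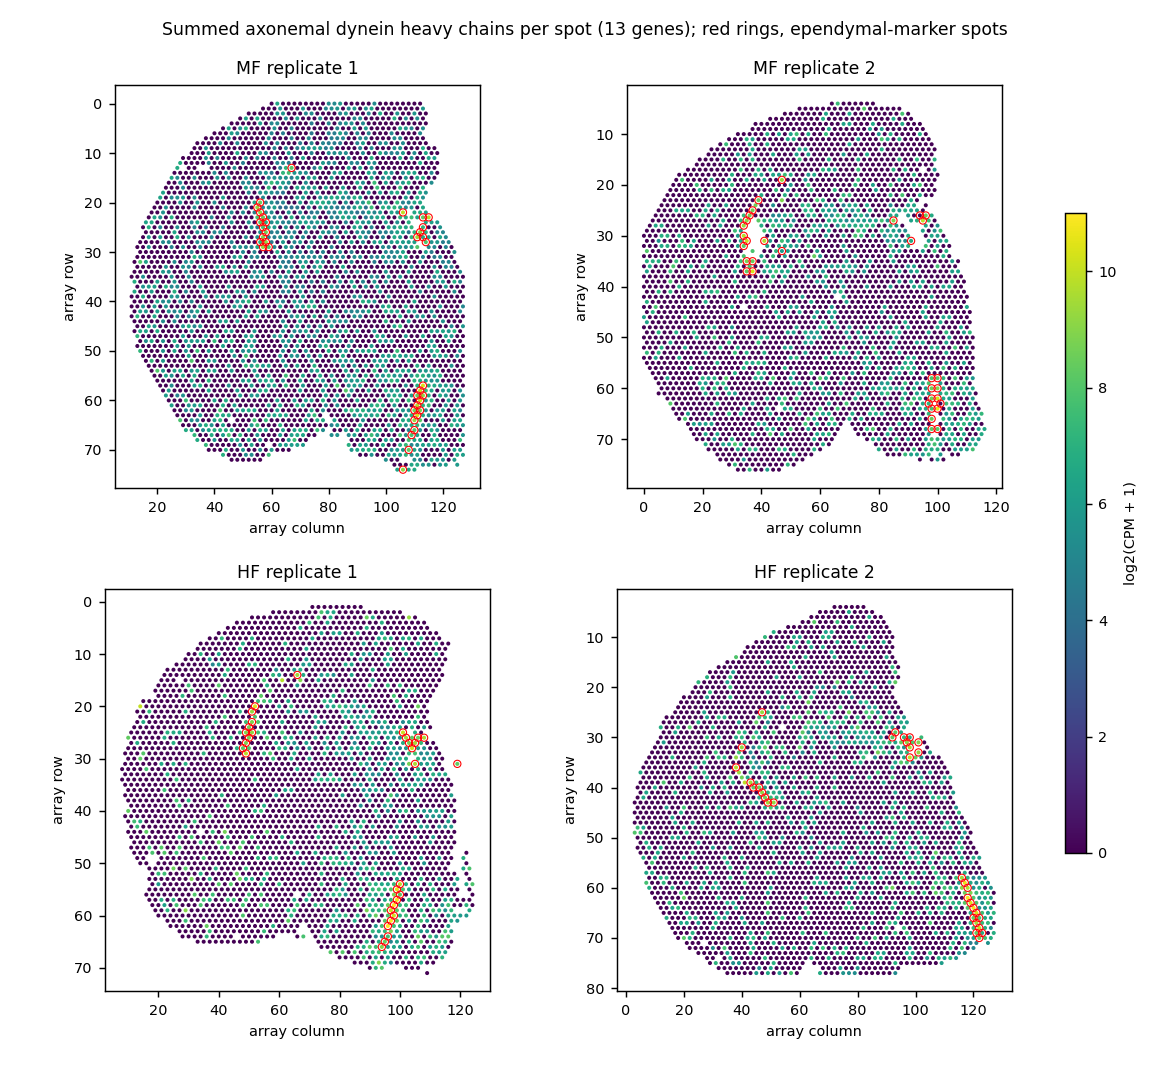
Summed level of the 13 dynein heavy chains in every kept spot of the 4 sections, as log2(CPM + 1) in colour (CPM, UMIs per 1000000 UMIs of the spot), at the spot's row and column on the array; red rings mark the ependymal-marker spots. The ringed bands hold the highest levels in every section, and elsewhere most spots are at 0 or hold a few UMIs.

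The promoters of the genes were examined first for letters bound by factors of ciliogenesis. RFX factors bind the X-box, whose core is GTTGCC, and FOXJ1 is the forkhead factor of motile ciliogenesis. RefSeq promoters (GRCm38.p6) were matched for 45 of the 56 genes. Cfap65, Cfap157, Cfap299, Cfap73, Rsph10b, Dnah3, Cfap97, Rsph4a, Cfap54, Rsph1 and Cfap53 had no entry. Within the 250 bases before the start, on either strand, GTTGCC or its reverse complement GGCAAC was present in 12 of 45 promoters (26.7%), against 11.8% of 27025 genes. GTTGCC followed directly by ATGG, a longer form counted among the former, was present in 2 promoters (4.44%), those of Cfap74 and Cfap97d2, against 0.529% of all genes. The forkhead letters GTAAACA were found in 3 promoters (6.67%, against 3.54%) and the CCAAT box in 17 (37.8%, against 37.5%).

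The windows shown set genes with large ratios in the ependymal-marker spots beside genes with smaller ratios. Cfap74 (4.03-fold) and Drc1 (3.98-fold) lay between these with nearly equal ratios, and Cfap58 had only 29 UMIs in these spots. Each window is written 5′ to 3′ on the strand of its gene, with 1 match in capitals. The windows lie at chr16:44394762-44394798 (plus strand) for Cfap44, chr7:83794855-83794896 (minus) for Cfap161, chr5:124725047-124725084 (plus) for Dnah10, chr19:47937635-47937676 (plus) for Cfap58, chr4:155409185-155409226 (plus) for Cfap74, chr5:30281364-30281392 (plus) for Drc1, chr16:90934886-90934927 (minus) for Cfap298 and chr8:95434940-95434981 (minus) for Cfap20. The capitals lay 19, 39, 20, 59, 37, 11, 60 and 94 bases before the start, in the same order. Further matches lay 59 and 66 bases before the start of Cfap161, 129 before that of Cfap44 and 116 before that of Cfap74. Cfap298 had further matches 69, 180 and 188 bases before the start, the first of them in lower case in its window.
Cfap44: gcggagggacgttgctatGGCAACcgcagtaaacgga
Cfap161: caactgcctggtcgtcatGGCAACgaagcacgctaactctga
Dnah10: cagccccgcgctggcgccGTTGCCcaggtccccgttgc
Cfap58: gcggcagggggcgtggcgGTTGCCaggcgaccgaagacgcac
Cfap74: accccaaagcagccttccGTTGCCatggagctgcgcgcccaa
Drc1: aggtgactgctttcccttGGCAACggctt
Cfap298: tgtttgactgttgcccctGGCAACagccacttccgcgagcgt
Cfap20: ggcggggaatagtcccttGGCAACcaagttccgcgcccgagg
Among genes at least 4-fold higher in the ependymal-marker spots, 7 of 31 promoters (22.6%) held the core. Among the 14 others with a promoter it was present in 5, Dnah7c, Drc1, Cfap300, Cfap298 and Cfap20. These others were not all raised little. They include Drc1 (3.98-fold), Cfap300 (3.46-fold, 21 UMIs in these spots) and genes not tested for area, such as Dnah7c (9 UMIs). Cfap20 and Cfap298 had the lowest ratios to all other spots of the genes printed.

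In the ependymal-marker spots most motile cilium genes were far above the rest of the section. In the comparison of ependymal-marker spots with all other spots, 50 of the 56 genes passed the filter on low counts and 47 were higher, with 0 lower, where higher means an adjusted p under 0.05 and at least 1.2-fold (edgeR quasi-likelihood test, section as a block). Of all 14247 features tested, 21.5% were higher. The filter took a gene that reached its cut in either spot group, so a rare gene could pass by its ependymal-marker spots alone. Cfap58 (59 UMIs in all) passed in this way, while Dnah17 (77 UMIs) and Dnah14 (73 UMIs) did not pass. The count of higher genes rests in part on this. The median log2 ratio of the 50 genes was 4.04 (16.5-fold), and that of all features was −0.02. At least 4-fold were 41 genes, and at least 16-fold were 26. These spots held 1.67% of all UMIs, but a median of 21.2% of a motile cilium gene's UMIs. The choice of spots used ependymal markers, and a gene that varies with those markers is high there in part by that choice.

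Among genes with 20 UMIs in every section, inner arm motors gave the 4 largest ratios. Cfap58, with 59 UMIs in all and 29 in the ependymal-marker spots, had a ratio of 52.2-fold. Dnah12, an inner arm heavy chain, was at 89.2, 94.9, 165 and 114 UMIs per 1000000 UMIs of those spots (CPM) and at 1.88, 1.96, 2.45 and 2.66 CPM in all other spots, a log2 ratio of 5.60 (SE 0.177, 48.3-fold, adjusted p = 3.73e-28 by edgeR). Dnah6, also of the inner arm, was at 55.3, 60.5, 78.0 and 56.3 CPM against 1.08, 1.36, 1.49 and 1.01 CPM (48.4-fold). The spot groups stood wide apart in every section for both genes. Dnah1 (log2 ratio 5.44) and Dnah3 (5.36), further inner arm chains, had ratios of the same size, and 46.4%, 46.3%, 44.6% and 42.4% of all UMIs of Dnah12, Dnah6, Dnah1 and Dnah3 lay in these spots. All 6 inner arm chains tested were higher, with a median of 42.2-fold. Dnah7c and Dnah14, also of the inner arm, did not pass the filter. Of their UMIs, 9 of 102 and 1 of 73 lay in these spots. Dnah14 had its highest mean in cortex (0.818 CPM), against 0.173 CPM in the ependymal-marker spots.

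Of the outer arm chains, Dnah9, Dnah11 and Dnah5 were each higher, with a median of 13.4-fold. Dnah9 was at 107, 106, 159 and 125 CPM against 8.26 to 9.26 CPM elsewhere (log2 ratio 3.74, SE 0.128). The outer arm chains known from sperm behaved otherwise. Dnah17 had 0 UMIs in the ependymal-marker spots and 77 in all sections, and Dnah8 had 1 of 40. A count of 0 in these spots allows up to 0.857 CPM (3 UMIs), above the 0.293 to 0.456 CPM of Dnah17 elsewhere, so a difference was not detectable at this depth. Rsph6a, a radial spoke gene known from sperm, had 2 of 43 UMIs there. Intervals and limits of this kind cover counting error only.

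The connecting structures were raised together. Rsph1, of the radial spoke head, was at 165, 173, 264 and 239 CPM in the ependymal-marker spots against 7.91, 8.92, 9.90 and 10.0 CPM elsewhere (log2 ratio 4.43, SE 0.103, adjusted p = 8.31e-33 by edgeR). Of 8 radial spoke genes tested 7 were higher. Rsph3a, with 3 UMIs in these spots and a near-identical paralog, Rsph3b, was the exception (adjusted p = 0.68 by edgeR). Rsph9, another spoke head gene, had a smaller ratio of 3.44-fold, with 24.5 to 27.1 CPM in all other spots. Among the regulatory complex genes, all 3 were higher, from Drc1 (3.98-fold) through Drc3 (6.95-fold) to Drc7 (28.3-fold).

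All 8 central apparatus genes were higher, with a median of 14.1-fold. Cfap65 was at 143, 134, 237 and 225 CPM against 4.22, 4.23, 5.94 and 5.54 CPM (log2 ratio 5.13, SE 0.122, 35.0-fold). Cfap54 was at 180, 196, 229 and 215 CPM against 13.9 to 15.6 CPM (13.4-fold). Cfap74 had the smallest ratio of the 8, at 4.03-fold, with a level of 25.6 to 26.9 CPM in all other spots. Of the tether proteins of the inner arm, Cfap43 had a ratio of 36.8-fold and Cfap44 of 17.9-fold. Cfap100, a modifier of inner arm activity, was 13.2-fold higher. The 7 doublet inner protein genes were all higher, with Cfap126 at 28.3-fold and Cfap20 at a log2 ratio of 0.58.

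A few members were spread over the whole brain. Cfap36, which binds the small GTPase Arl3, was at 216, 211, 229 and 250 CPM in the ependymal-marker spots and at 221, 219, 186 and 226 CPM in all other spots (log2 ratio 0.02, SE 0.0797, adjusted p = 0.857 by edgeR). The 2 spot groups overlapped. Cfap97 (log2 ratio −0.23, adjusted p = 0.325 by edgeR) also did not pass the test. Cfap410, a partner of the kinase Nek1, passed at 1.22-fold with overlapping levels (43.8 to 64.3 against 40.6 to 49.5 CPM). Cfap298, an assembly factor of dynein arms, was 1.90-fold higher. Of the UMIs of Cfap36, Cfap97 and Cfap410, 1.74%, 1.47% and 2.16% lay in the ependymal-marker spots.

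**Figure D2:**
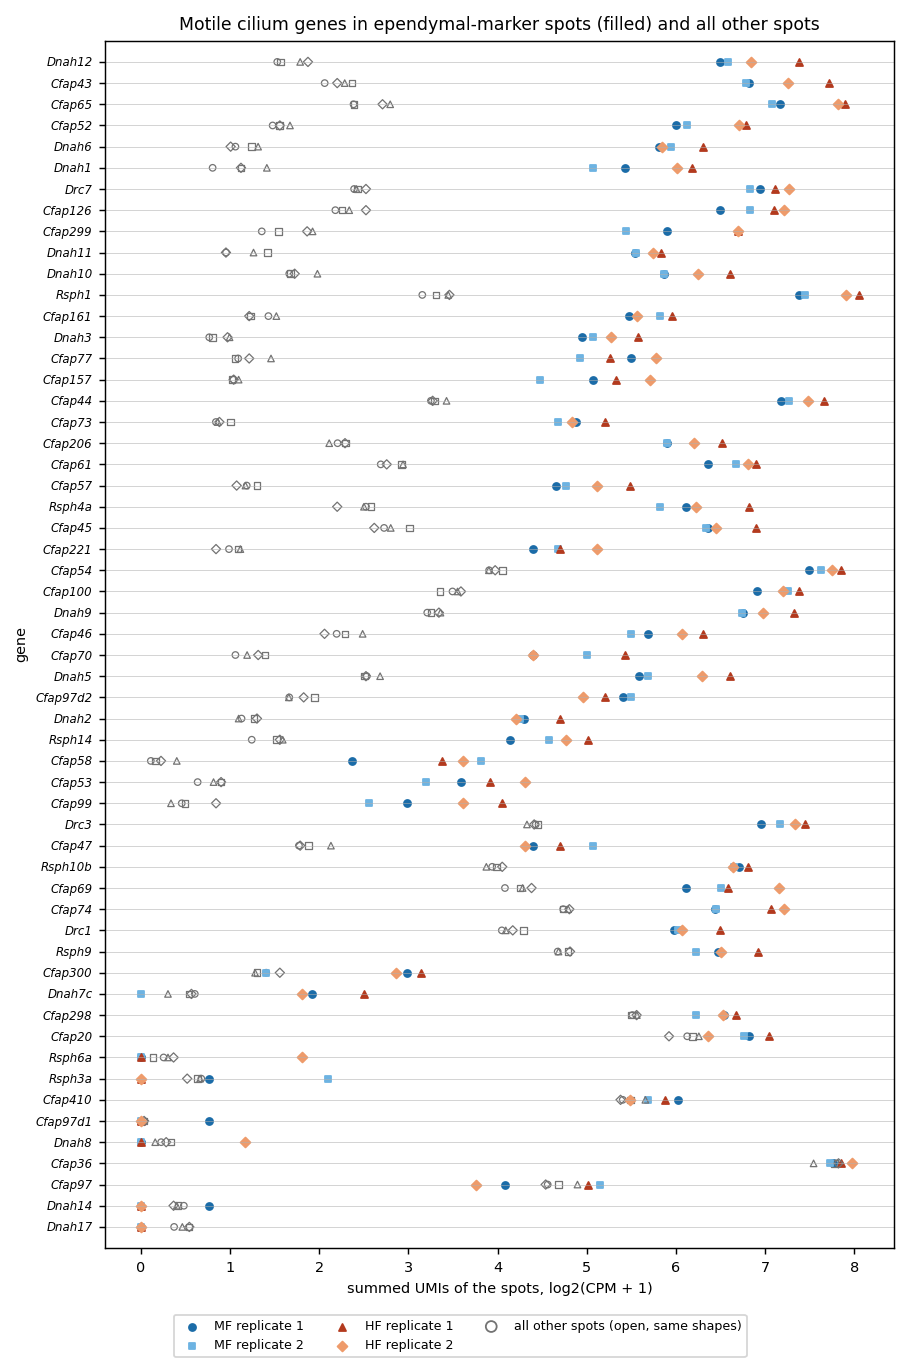
Level of each of the 56 genes in each section as log2(CPM + 1), with UMIs summed over the ependymal-marker spots (filled, coloured by section) or over all other spots (open, same shapes), genes ordered by their ratio. Filled points lie to the right of open points for most genes and meet them in Cfap36, Cfap97 and Cfap410 near the foot, where Dnah17 has its filled points at 0.

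Detection in single spots followed the same division. A median of 38, 29, 35.5 and 34 of the 56 genes had a UMI in an ependymal-marker spot, against 8, 5, 4 and 5 in another spot. Median depth was 38395, 17271, 18753 and 25341 UMIs in the former and 23429, 12013, 9227 and 11801.5 in the latter. With spots thinned to 5000 UMIs the medians were 12, 12, 14 and 15 against 3, 3, 2 and 2. Spots with fewer UMIs were dropped. This left all ependymal-marker spots and 3553, 3183, 2655 and 3185 of 3562, 3281, 3165 and 3310 other spots. At this common depth Cfap65 had a UMI in 59.7% of ependymal-marker spots and in 1.09% of spots of the cortical clusters, where no motile cilia stand (93.3% and 3.25% before thinning, at median depths of 23554 and 12548 UMIs). Dnah12 was detected in 39.6% and 0.45% of these spots after thinning, and Rsph1 in 59.0% and 3.15%. Cfap36 was detected in 70.9% and 67.4%.

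Outside the ependymal-marker spots, the remaining spots were divided by the clusters their leading genes named. The mean level over the 4 sections was highest in the ependymal-marker spots for 44 of the 56 genes, and 39 were highest there in every section. Among the areas other than these spots, the choroid plexus cluster gave the highest mean for 31 genes. Only 16 such spots, 4 in each section, were left outside the ependymal-marker spots. The choroid plexus itself is the secretory epithelium of the ventricles, and its cluster gave the highest mean of all areas for 4 of the 31, Cfap69, Drc7, Cfap298 and Rsph9. Drc7 had a mean of 210 CPM there and 132 CPM in the ependymal-marker spots, with 1.72 CPM in cortex. Dnah12, in contrast, had means of 11.3, 116 and 0.743 CPM in the same areas. For Rsph9 the means were 109, 92.9 and, in hypothalamus, 48.9 CPM. Dnah9 reached 22.5 CPM in hippocampus. Hypothalamic clusters gave the highest means of Cfap97, Cfap410 and Cfap36. Some of these ranks were near ties. Cfap36 was at 229 CPM in hypothalamus (206 to 250 over sections) and at 227 CPM in ependymal-marker spots (211 to 250). Cfap69 was at 99.3 CPM in choroid plexus and 98.7 CPM in ependymal-marker spots.

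The summed level of the 13 dynein heavy chains ordered the areas. It was 604 CPM in ependymal-marker spots (496 to 801 over sections), 128 in choroid plexus (106 to 148), 59.6 in medial habenula, 38.1 in hypothalamus, 37.0 in hippocampus and 14.5 in cortex (13.3 to 16.6). The first 2 ranges and the range of the medial habenula (49.8 to 79.9) did not meet. The medial habenula borders the ventricle, and 8, 3, 6 and 5 of the ependymal-marker spots had been assigned to its cluster.

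Distance from the ependymal-marker spots gave the same order. The summed dynein heavy chains fell from 604 CPM to 95.4 CPM in spots adjacent to an ependymal-marker spot and 48.0 CPM in the next ring. They were at 36.8 CPM in the third ring, at 22.9 CPM 6 to 10 spots away and at 18.8 CPM (17.2 to 20.7) over 10 spots away. The radial spoke genes went from 683 over 178 and 121 to 59.6 CPM over 10 spots away. For the ependymal markers, which chose the spots, the values were 2742, 752, 550 and 427 CPM. In the adjacent ring the dynein sum was 70.4 and 68.7 CPM in the MF sections and 122 and 121 CPM in the HF sections, while the ependymal markers were at 707 and 680 against 759 and 861 CPM. In the next ring the dynein sum of all 4 sections lay between 46.2 and 50.6 CPM. The radial spoke sum of that ring was 109 and 116 CPM in MF and 121 and 137 CPM in HF. In the third ring the dynein sum was 28.4 and 36.6 CPM in MF and 41.8 and 40.3 CPM in HF. The rings were not tested between diets.

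**Figure D3:**
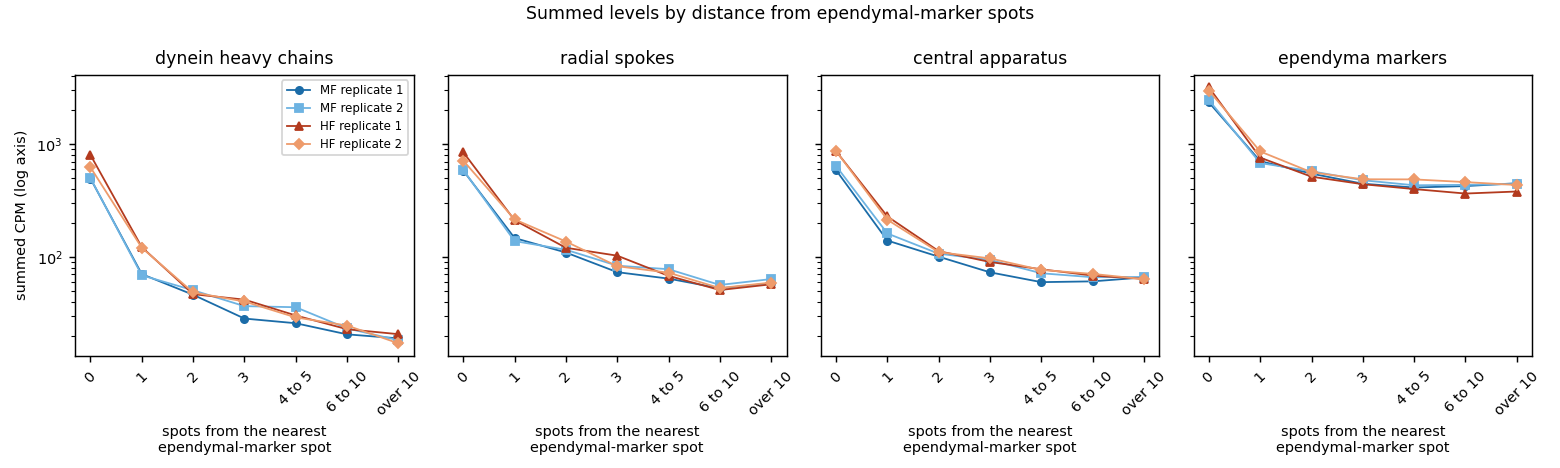
Summed CPM (log axis) of the dynein heavy chains, radial spoke genes, central apparatus genes and ependymal markers against distance in spots from the nearest ependymal-marker spot, 1 line per section. The dynein sum falls from 496 to 801 CPM at distance 0 to 46.2 to 50.6 CPM at distance 2. Its MF and HF sections are apart at distances 0, 1 and 3. In the radial spoke and central apparatus sums they are apart at distance 2.

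Moran's I, a measure of how alike neighbouring spots are in a gene, was read from the deposited table of each section. The median of the motile cilium genes was 0.0588, 0.0353, 0.0606 and 0.0614, and that of all features 0.0166, 0.0113, 0.0146 and 0.0104. In terms of rank, the median gene stood at the 78.2, 75.9, 83.4 and 84.6 percentile of its section. An adjusted p under 0.05 in the deposited tables was found for 50 of 56, 43 of 56, 48 of 55 and 47 of 56 genes. In all 4 sections it was under 0.05 for 40 of 55 genes, where 38.1% of the 16212 features listed in every section were. The highest mean values were those of Cfap65 (0.149, 0.120, 0.228 and 0.205), Drc7 (0.199, 0.109, 0.151 and 0.192), Cfap44 (0.158, 0.0987, 0.143 and 0.193), Cfap43 (0.155, 0.101, 0.175 and 0.147) and Rsph1 (0.133, 0.067, 0.153 and 0.167). MF replicate 2 was lowest for each of these 5. The deposited I rests on full depth, and depth differs between sections, so no order of the diets is read from it.

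**Figure D4:**
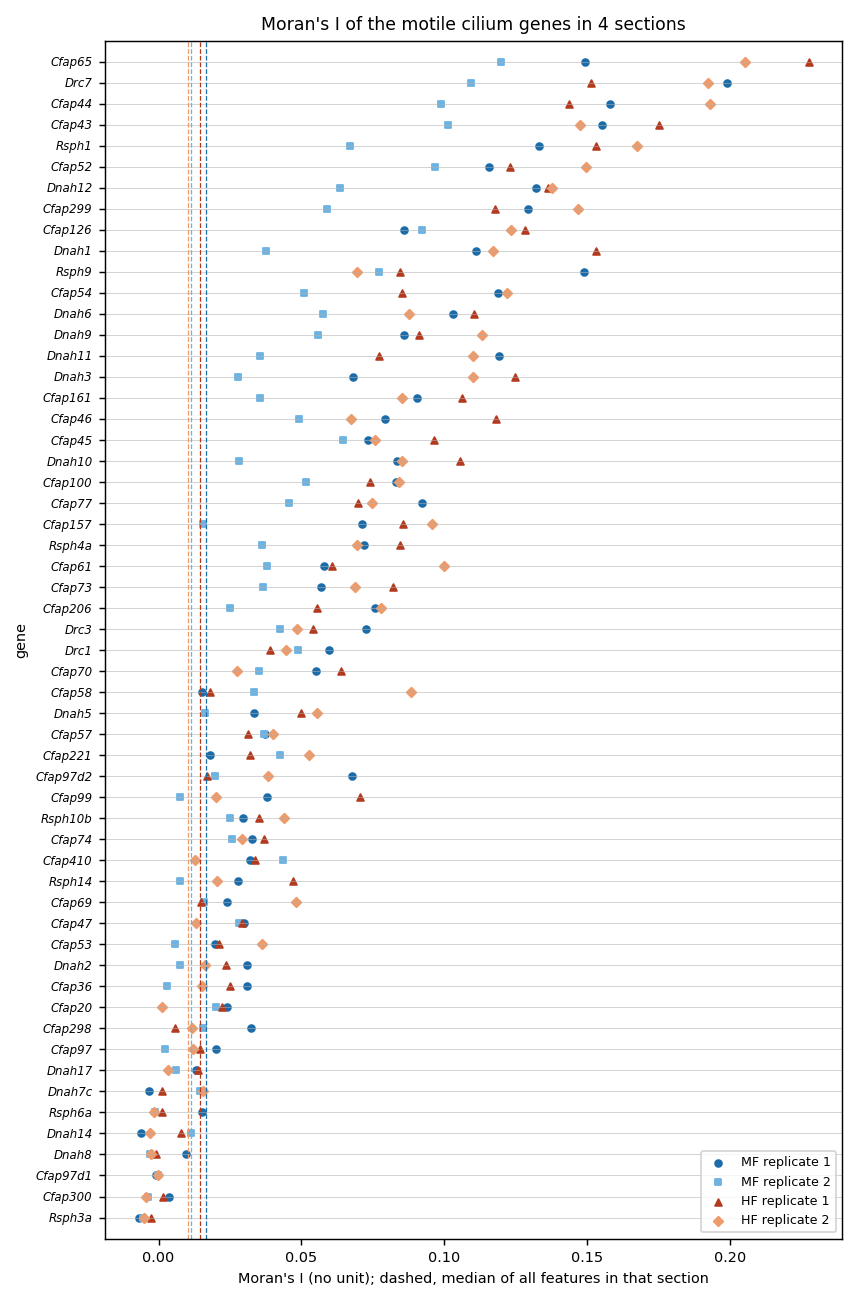
Moran's I (no unit) of each of the 56 genes in each section, genes ordered by their mean; dashed lines mark the median of all features in the section of that colour. Cfap65, Drc7, Cfap44, Cfap43 and Rsph1 lead, and Rsph3a has the lowest mean.

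The question of the study was whether excess maternal folic acid changes expression in the offspring brain. Over whole sections, 0 of the 53 motile cilium genes tested were called different between HF and MF by edgeR (adjusted p under 0.05 and at least 1.2-fold), as were 0% of 14971 features. At an unadjusted p under 0.05 there were 11 genes, and 1018 of all features. DESeq2 called 0 of these genes and 23 features in all. Cfap299, which had the largest ratio among genes with 20 UMIs in every section, was at 2.48, 2.50, 4.63 and 4.52 CPM (log2 ratio 0.87, SE 0.141, adjusted p = 0.699 by edgeR). Cfap65 was at 6.45, 6.11, 10.2 and 9.67 CPM (0.65), Dnah1 at 1.41, 1.63, 2.94 and 2.35 CPM (0.80) and Dnah12 at 3.29, 3.30, 5.43 and 4.75 CPM (0.62).

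Both HF sections lay above both MF sections in each of these 4 genes. They did so in 25 of the 53 genes, where 21.8% of all features did. Both lay below in Dnah14 and Rsph3a, and in 17.9% of all features. The median log2 ratio of the 53 genes was 0.17, against 0.00 for all features. Cfap36 (−0.10), Cfap97d2 (−0.09), Cfap20 (−0.07) and Cfap45 (−0.03) had the lowest ratios among genes with 20 UMIs in every section. Leaving out HF replicate 1 or HF replicate 2 gave 4 genes higher in the former case, and 6 higher and Cfap36 lower in the latter, with 1124 and 812 features called in all, and leaving out either MF section gave 0 genes.

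Within the ependymal-marker spots, 6 of the 46 motile cilium genes tested were higher in HF and 0 were lower, where 0.49% of 10410 features were higher (edgeR). The 6 were Cfap299, Dnah5, Cfap65, Cfap74, Cfap43 and Rsph1, and they came from 5 of the 8 role groups. The median log2 ratio of the 46 genes was 0.41 (1.33-fold), and that of all features was 0.00. In 32 of the 46 genes both HF sections lay above both MF sections, where 17.3% of all features did. Cfap97d2 was the only one with both below, a pattern found in 24.4% of all features.

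Cfap65 (chr1:74902071-74935599, minus strand, mm10), a protein of the central apparatus, was at 143 and 134 CPM in the MF sections and at 237 and 225 CPM in the HF sections. The groups did not overlap, and the log2 ratio was 0.77 (SE 0.151, adjusted p = 0.00406 by edgeR). Cfap299 (chr5:98329304-98802047, plus strand) was at 58.7 and 42.5 CPM in MF and 103 CPM in both HF sections (log2 ratio 0.99, SE 0.211, adjusted p = 0.00969 by edgeR). It had the largest fold of the 46 genes, 1.99-fold.

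Dnah5 (chr15:28203752-28472052, plus strand), the outer arm heavy chain best known from primary ciliary dyskinesia, was at 47.0 and 50.7 CPM in MF and 96.8 and 77.5 CPM in HF (log2 ratio 0.88, adjusted p = 0.0441 by edgeR). Cfap43 (chr19:47736857-47919287, minus strand), a tether protein, was at 112 and 110 CPM against 209 and 153 CPM (0.73, adjusted p = 0.0235 by edgeR). In both genes HF replicate 1 was the higher HF section. Cfap74 (chr4:155409190-155466823, plus strand), also of the central apparatus, was at 85.7 and 86.7 CPM against 133 and 148 CPM (0.75, adjusted p = 0.031 by edgeR). Rsph1 (chr17:31255019-31277383, minus strand) was at 165 and 173 CPM against 264 and 239 CPM (0.61, adjusted p = 0.0304 by edgeR).

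By role, the median ratio was lowest for the remaining Cfap genes, of which 3 of 6 were above 0, and most genes did not pass the test. The median log2 ratio was 0.44 for the outer arm (1 of 3 called), 0.55 for the inner arm (0 of 6), 0.34 for the regulatory complex (0 of 3) and 0.50 for radial spokes (1 of 7). It was 0.56 for the central apparatus (2 of 8), 0.37 for doublet inner proteins (0 of 7), 0.34 for tether, modifier and assembly proteins (1 of 6) and 0.09 for the remaining Cfap genes (1 of 6). Summed over the dynein heavy chains the level was 496, 499, 801 and 623 CPM, with both HF sections above both MF sections. Dnah1 (0.83, adjusted p = 0.11) and Cfap52, a doublet inner protein (0.75, adjusted p = 0.0629), were large but not called by edgeR. Cfap97d2 (−0.33), Cfap410 (−0.20) and Cfap20 (−0.04) were the genes with 20 UMIs in every section whose ratio was below 0.

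**Figure D5:**
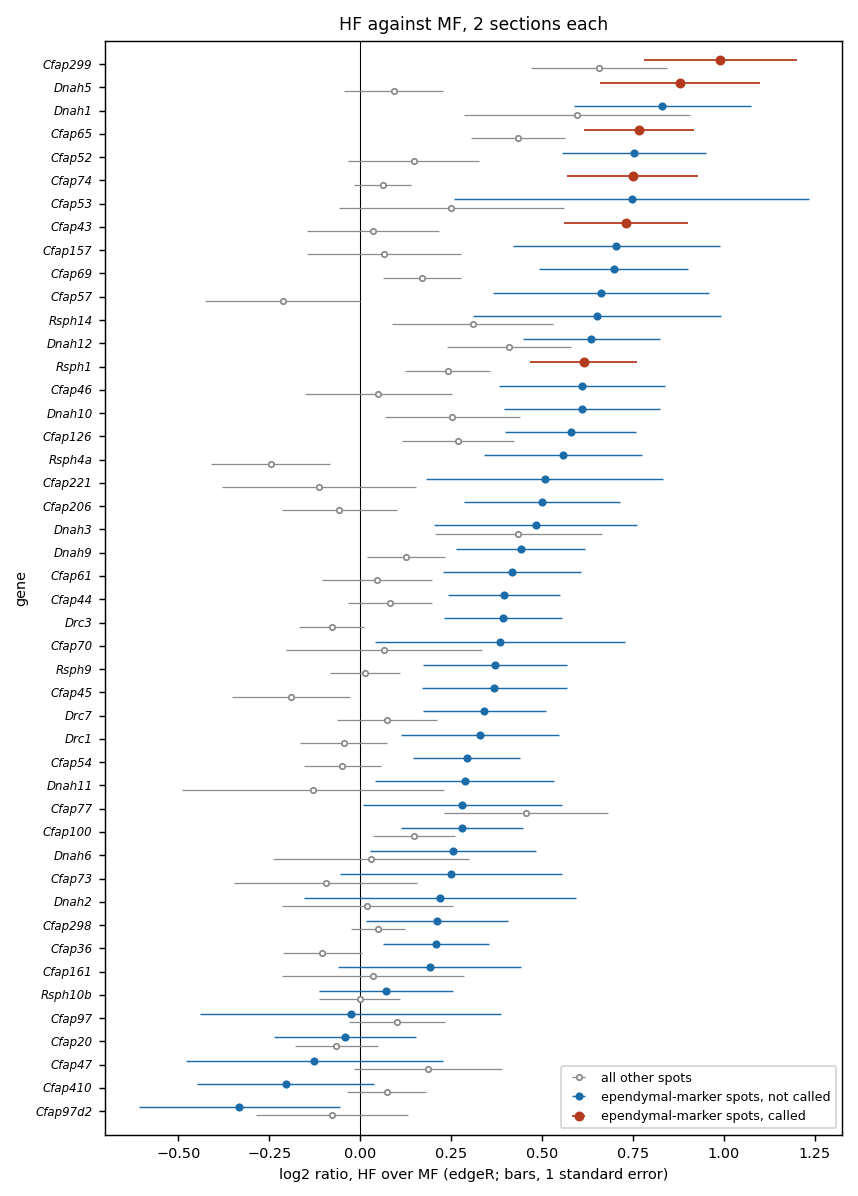
log2 ratio of HF over MF with 1 standard error (edgeR, 2 sections each) for the 46 genes tested in the ependymal-marker spots (filled; red where called, blue where not) and the same genes in all other spots (open). Of the filled points 41 lie above 0, and the 6 called genes lie between 0.61 and 0.99.

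In all other spots, 0 of 52 genes were called by edgeR, as were 0% of 14905 features. An unadjusted p under 0.05 was reached by 2 genes and 947 of all features, and DESeq2 called 16 features in all. Both HF sections lay above both MF sections in 17 of 52 genes, where 20.9% of all features did, and below in 4, where 17.8% did. The median log2 ratio was 0.06. The difference between both ratios was tested directly by an area by diet term, which was called for 1 of 51 genes, Cfap74, where 0.494% of 14786 features were called. Its log2 ratio of HF over MF was 0.75 in the ependymal-marker spots and 0.06 in all other spots, a difference of 0.69 (adjusted p = 0.0445 by edgeR). This call was lost with library size alone, with 0.5% or 2% of spots, without the choroid plexus spots and when any section was left out. The median of this difference over the 51 genes was 0.33, and for the other 5 genes called in the ependymal-marker spots the difference did not pass.

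The makeup of the ependymal-marker spots differed between the MF and HF sections as well. So did the tissue in the sections. An unnamed cluster led by Oxt and Avp had 16, 50, 157 and 130 spots. The lowest marker score among the ependymal-marker spots was 48.7, 41.7, 54.2 and 48.7. With 2 sections per diet, the diet and the tissue cut were not tested apart. Their 13 ependymal markers had a summed level of 2344 and 2456 CPM in MF and 3189 and 2978 CPM in HF. The ratio was above 0 for all 13 (median 0.46), and 1, Tm4sf1, was called. Choroid plexus markers summed to 50181 and 43788 CPM in MF and 87398 and 89564 CPM in HF, with 10 of 14 higher (median 0.83, led by Ttr, the transthyretin of that epithelium, at 0.98). White matter markers summed to 24675 and 24235 CPM against 15179 and 15895 CPM, with 10 of 14 lower (median −0.70). No defining marker of the 3 lists was at 0. With 0.5% or 2% of spots, 0 choroid plexus (medians 0.27 and 0.59) and 0 white matter markers (−0.64 and −0.39) were called. In the ependymal cluster of resolution 3, 0 of either list were called, with medians of 0.0372 and −0.25. These spot choices called far fewer features in all, with counts given in the last section. The absence of marker calls is therefore not read as a smaller difference. Outside the ependymal-marker spots 0 were called as well, as were 0% of 14905 features. There 11 of 14 choroid plexus markers were above 0 (median 0.22), and 0 of 15 white matter markers were (−0.28). The part of the makeup of the ependymal-marker spots in the diet difference of the cilium genes was not tested. Relative to the ependymal marker sum, the dynein heavy chain sum was 0.211 and 0.203 in MF and 0.251 and 0.209 in HF, and the groups overlapped. The ratio of the central apparatus sum was 0.251 and 0.260 against 0.271 and 0.291, without overlap, and that of the outer arm 0.0852 and 0.0826 against 0.0979 and 0.0861. For the remaining role groups the ratios overlapped.

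The calls depended on the spots and sections used. Without the 27 spots of the choroid plexus cluster, an alternative chosen after seeing the data, the median log2 ratio was 0.54, and Cfap299 and Cfap65 were the 2 motile cilium genes called. There, 0 of 11 choroid plexus markers were called (median 0.34), and 7 of 14 white matter markers were lower (median −0.75). DESeq2 called 0 of the 46 genes at nearly the same median (0.40). With a section left out, the median was 0.40 (without MF replicate 1), 0.47 (without MF replicate 2), 0.35 (without HF replicate 1) or 0.52 (without HF replicate 2). The calls of each alternative and the features called in all are given in the last section.

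Genes of the same machinery under other symbols were taken from 6 lists of 92 measured genes, from regulators to structural proteins. In the ependymal-marker spots against all other spots, 72 of 85 tested were higher, where 21.5% of all features were. The 1 lower gene was the tektin Tekt5 (log2 ratio −0.61), where 2993 of 14247 features were lower. The median of the 85 genes was 3.29. Among regulators, Gmnc, which starts the multiciliated programme, had a log2 ratio of 4.26 and the transcription factor Rfx2 one of 3.51. The ratios of Rfx3 (0.74) and Rfx4 (1.11) were smaller. Mcidas, which acts with Gmnc in precursor cells, had UMIs in the ependymal-marker spots of 1 section. The central apparatus gene Hydin was at 5.16, the dynein assembly factors Dnaaf1 and Zmynd10 at 4.42 and 3.93. Tuba1a, a tubulin of all neurons, was at −0.03.

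Between diets in the ependymal-marker spots, 4 of 71 of these genes were higher and 0 lower by edgeR, where 0.49% of all features were higher, with a median of 0.41. The 4 were Mns1 (log2 ratio 0.95), Lrrc23 (0.89), Iqcg (0.85) and 1700007K13Rik (0.81). Iqcg, a subunit of the regulatory complex, was at 68.4, 68.7, 130 and 113 CPM, and Lrrc23, of the radial spoke, at 63.6, 101, 150 and 129 CPM. In both genes the HF sections lay above the MF sections. Rfx2 was at 24.2, 26.2, 48.4 and 51.3 CPM (1.05, adjusted p = 0.0637 by edgeR) and Gmnc had the larger log2 ratio of 1.79 (adjusted p = 0.0526 by edgeR). Foxj1, which was among the markers that chose the spots, was at 100, 123, 183 and 149 CPM (0.64, adjusted p = 0.0698 by edgeR). Over whole sections 0 of 87 were called.

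Across the 12 areas in 4 sections (48 points, which share libraries and depth), the features outside the 56 whose log2 CPM most resembled that of their sum were Ccdc162 (r = 0.955), Iqcg (0.947), Ubxn11 (0.945), Kif9 (0.944), Ascc1 (0.940), Wdr63 (0.940), Myo7a (0.938), Pih1d2 (0.937), Catip (0.936) and Ttc21a (0.936). Iqcg and Wdr63 were in the lists above. Kif9 is a kinesin of the central apparatus. These correlations are a description.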

How the data were processed

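Visium FFPE libraries of 4 coronal sections (MF and HF, 2 each) were analysed. The authors aligned probe reads to mm10 with Space Ranger 2.0.0 and deposited UMI counts per spot. Per the file headers, the deposited enrichment tables hold Moran's I as a score and its adjusted p-value for each feature, from which I and the adjusted p-value were used as given. The probe panel sets what is counted, so levels were not compared between genes, and counts of near-identical paralogs (Rsph3a, Dnah7c) are uncertain. Other columns of those tables were used only to check totals, and no image was used.

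Spots under 500 UMIs or 250 genes were removed. Levels are UMIs summed over spots, divided by the UMI total of those spots and scaled as CPM. Spots were clustered on 2000 variable genes (30 components, 20 neighbours, Leiden resolution 2, scanpy 1.11.5, leidenalg 0.10.2), which gave 28 clusters. The motile cilium genes, the 6 lists of related genes, mitochondrial genes and Xist and Tsix (148 features) were left out. Clusters were named by their markers. None was ependymal, so the 1% of spots per section with the highest summed ln(CPM + 1) of the ependymal markers was used. Sums per section were tested with edgeR 4.0.16 (R 4.3.3; TMM, filterByExpr, robust quasi-likelihood, Benjamini-Hochberg over all features tested). A feature was called at an adjusted p under 0.05 and at least 1.2-fold. The section was the replicate. The main fits did not pair sections by number. Deviations of same-numbered sections from their diet means had r = −0.165. With 2 sections per diet, crossing the numbers only flips that sign, so it cannot decide whether numbers pair sections. The replicate number was fitted as a block among the alternatives. The scripts were tested on simulated data. DESeq2 1.42.0 and other spot choices, depths, filters and left-out sections were alternatives.

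Genes were named if called between diets or if among the 4 largest folds in each direction. The 4 highest and 4 lowest area ratios were named too, both rules taking genes with 20 UMIs in every section. So were the 12 with the most UMIs in the ependymal-marker spots, the 5 highest Moran's I and the most abundant of a role. Others were named after their values were seen. The members and lists were chosen with earlier results of these data known.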

Additional observations from a re-analysis of the deposited data

Results flagged for a closer look

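For Cfap74, a central apparatus gene, the difference between HF and MF itself differed between the ependymal-marker spots and all other spots, by 0.69 on the log2 scale (area by diet term, adjusted p = 0.0445 by edgeR). Its levels were 85.7, 86.7, 133 and 148 CPM in the former and 25.6, 25.6, 26.7 and 26.9 CPM in the latter, in the order MF replicate 1, MF replicate 2, HF replicate 1 and HF replicate 2. The call was lost with library size alone, with 0.5% or 2% of spots, without the choroid plexus spots and when any section was left out, and the cause was not tested.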

How the results depend on the processing

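Over whole sections (0 features called), DESeq2 called 23, no filter 1 and thinning to 5000 UMIs 1, and leaving out a section gave 0 to 1124 (motile cilium genes higher 0 to 6). The median ratio of those genes was 0.0746 after thinning. The replicate number as a block called 0, and crossed numbers 8, none of them a motile cilium gene. In the ependymal-marker spots (72 called), the count was 22 with DESeq2, 130 without a filter, 5 after thinning, 110 with the replicate block (which kept the 6 motile cilium genes), 13 at Leiden resolution 3, 3 with 0.5% and 1 with 2% of spots, 14 without choroid plexus spots and 39 to 186 without a section. Motile cilium genes called (6) came to 2 with library size alone, 0 with DESeq2, 0 after thinning, 2 at resolution 3, 0 with 0.5%, 0 with 2%, 2 without choroid plexus spots and 0 to 7 without a section. Their median (0.41) was 0.54 after thinning, 0.90 at resolution 3 and 0.54 without choroid plexus spots. In all other spots (0 called), DESeq2 called 16, no filter 1, and leaving out a section gave 0 to 1082. The median there (0.06) was 0.0126 after thinning, 0.11 with 0.5% of spots and 0.0313 to 0.11 without a section. The area comparison called 3052 features after thinning (6051 otherwise), and its median (4.04) was 3.37 at resolution 3, 4.36 with 0.5% and 3.47 with 2% of spots.

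The area by diet term (73 called) gave 27 at resolution 3, 13 with 0.5%, 12 with 2%, 9 without choroid plexus spots and 15 to 55 without a section. Motile cilium genes called (1) came to 2 at resolution 3 and 0 with library size alone, 0.5%, 2%, without choroid plexus spots and without any section. The median (0.33) was 0.72 at resolution 3, 0.13 with 0.5%, 0.41 with 2% and 0.40 without choroid plexus spots. The mean of the section medians of Moran's I (0.054) was 0.07 when computed here at full depth and 0.0223 after thinning. Ratios near 0 changed sign. Over whole sections, leaving out a section gave −0.15 to 0.0989 for Cfap45, −0.24 to 0.0502 for Cfap97d2, −0.26 to 0.0417 for Cfap36 and −0.24 to 0.0862 for Cfap20. In the ependymal-marker spots, Cfap20 was 0.20 after thinning, 0.0249 at resolution 3 and −0.39 to 0.28 with a section left out, Cfap410 was 0.20 after thinning and −0.40 to 0.0382 with a section left out, and Cfap97d2 was 0.64 at resolution 3. The area ratio of Cfap36 was −0.0035 without a filter, −0.0423 after thinning, −0.026 at resolution 3, −0.0306 with 2% of spots, −0.0407 without choroid plexus spots and −0.0514 to 0.0794 with a section left out, and that of Cfap410 was −0.22 at resolution 3. The cause of these shifts was not tested. Resolution 1 gave no ependymal cluster and was not run. The 0.5%, 2%, choroid plexus and crossed-number alternatives, and resolution 3 for the area by diet term, were chosen after seeing the data. The few UMIs of the rarest genes limit what could be tested: 3 genes over whole sections and 10 in the ependymal-marker spots did not pass the filter.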
